A study of Saccharomyces cerevisiae with 12 samples.

Results

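Gene expression was compared between yeast arrays labelled E62C and E62A, names that the study gives to evolved mutants of Saccharomyces cerevisiae grown on galactose. The comparison used 4 of the 12 Affymetrix arrays of the study, 2 labelled E62C and 2 labelled E62A, picked by their titles. The 2 arrays labelled REF, the reference strain, are given last wherever a level in that strain helps to place a difference. Every group carries the strain name CEN.PK113-7D in the labels, a haploid laboratory strain, and every culture was grown in minimal medium with galactose in a fermenter held at pH 5.0 and taken in mid exponential phase. Each of the names E62C and E62A stands for 1 mutant, and nothing in the labels tells whether replicate arrays were hybridised with RNA of separate cultures. If they were not, the p-values rest on technical spread alone. Levels are log2 values of the robust multi-array average (RMA), a method that corrects background and sets the probe intensities of all arrays to 1 distribution. The values were tested for 5449 genes with 1 probe set each.

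The gene that names another group of the study went against the labels. PGM2, which encodes the major phosphoglucomutase, was at 13.43 and 13.19 on the arrays labelled E62C, at 11.41 and 11.40 on those labelled E62A, and at 10.49 and 10.87 on those labelled PGM2. It was at 12.14 and 12.11 on those labelled REF. The arrays labelled E62C thus had the highest PGM2 levels of all 12 arrays and those labelled PGM2 the lowest, so every direction here goes by labels that this gene does not bear out, and no result can be given without the arrays in question. URA3 and YGL007C-A, described under the largest rises, were also far higher on the arrays labelled E62C than on the other 10. Whether the labels E62C and PGM2 were exchanged cannot be told from the labels, so it is not settled that the arrays labelled E62C hold RNA of the evolved mutant of that name.

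Other features of the arrays bear on the values. On E62C replicate 2 the 27 hybridisation control probe sets averaged 9.77, against 11.6 on E62C replicate 1, and 11.5 and 11.2 on the E62A arrays, while 17 ribosomal RNA probe sets averaged 11.9 there, against 10.1 on E62C replicate 1, and 10.2 and 9.30 on the E62A arrays. The median absolute difference between replicates was 0.110 for E62C and 0.0507 for E62A. Of 47 reporter probe sets, which match no yeast gene, 39 varied by no more than 1 on the log2 scale over the 12 arrays. A group of 5 reporter probe sets from 1 source was near background on the REF and E62B arrays and higher on the other 8 arrays, which include all those labelled E62C and E62A. The part of these features in the results was not tested, except by leaving out each array in turn.

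On galactose, yeast takes up the sugar through the permease Gal2 and converts it by the Leloir pathway (Gal1, Gal7, Gal10) and phosphoglucomutase into glucose 6-phosphate, under control of the activator Gal4 and its inhibitor Gal80. Reserve carbohydrates, stress genes and growth are set largely by the Ras and cyclic AMP pathway through protein kinase A. The study is known for mutations in that pathway and in the ergosterol gene ERG5 among its evolved mutants, and the gene lists used here cover these pathways together with other parts of metabolism, mating and the cell wall.

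The arrays labelled E62C differed from those labelled E62A in 970 of 5449 genes (17.8%) at an adjusted p under 0.05, by limma with Benjamini-Hochberg adjustment. Among these, 543 (9.97%) were higher and 427 (7.84%) lower on the arrays labelled E62C. Each list count given later is to be read against these shares. A list near them does not stand out from all genes. In RNA of whole cultures, fewer cells expressing a gene and less of its RNA per cell cannot be told apart. The differences were mostly small. The median size among called genes was 0.38 on the log2 scale and the smallest 0.19, while 45 called genes were at least 2-fold higher and 12 at least 2-fold lower. All 970 had arrays that did not overlap between the groups, but so did genes that did not pass, such as GAL7 and RAS2. With 2 arrays in each group, this adds no support to the calls. Leaving out E62C replicate 1 left 1010 called genes, and leaving out E62C replicate 2 left 622, of which 528 were among the 970. Without E62A replicate 1 the count was 375, and without E62A replicate 2 it was 408. Counts of list members without 1 array are given in this same order of arrays. Each gene named as higher or lower also passed without each of the 4 arrays in turn, unless said otherwise.

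**Figure D1:**
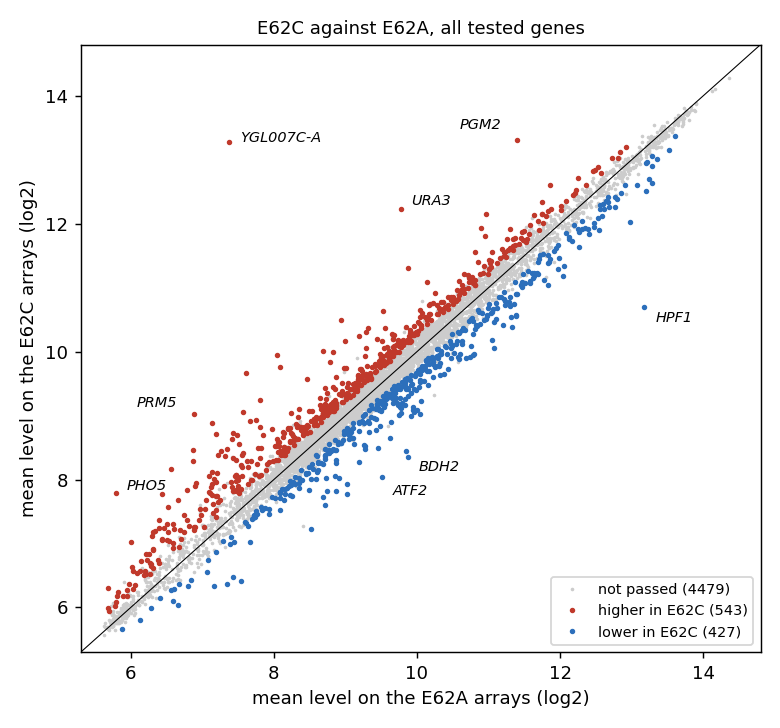
Mean level of each tested gene on the 2 arrays labelled E62C (vertical axis, log2) against its mean on the 2 arrays labelled E62A (horizontal axis, log2), with the line of equal levels. The 543 genes higher in E62C are in red, the 427 lower are in blue, and YGL007C-A lies farthest from the line.

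The largest rise belonged to YGL007C-A, a small open reading frame that lies between PMA1, the plasma membrane proton pump, and BRP1 on chromosome VII. Its level was 13.48 and 13.09 on the arrays labelled E62C, 7.41 and 7.34 on those labelled E62A, and 7.75 and 7.80 on REF. The other 10 arrays of the study all lay between 7.34 and 7.90, and the difference of 5.91 ± 0.11 (SE, n = 2 arrays each, adjusted p = 6.18e-11) was the largest of any tested gene. PMA1 itself went the other way, with 12.65 and 12.55 on the arrays labelled E62C, 13.10 and 13.05 on those labelled E62A, and 13.03 and 13.01 on REF. That is a difference of -0.48 ± 0.08 (adjusted p = 0.00193). Of 11 measured genes of the PMA1 locus and of partners of the pump, 1 was higher and 3 were lower, with a median of -0.14 against 0.03 for all genes. The lower counts were 3, 3, 1 and 2 when each array was left out. LEU1, the other neighbour of PMA1, fell by 0.38 ± 0.07 (adjusted p = 0.00444), which was no longer a call when E62A replicate 1 was left out (adjusted p = 0.0509).

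URA3, which encodes the last enzyme of uridine monophosphate synthesis, was at 12.12 and 12.34 on the arrays labelled E62C, 9.73 and 9.81 on those labelled E62A, and 9.73 and 9.79 on REF. It was higher by 2.46 ± 0.08 (adjusted p = 2.37e-08), and the highest of the other 10 arrays was at 9.81. The 3 control probe sets for the same gene were higher on the arrays labelled E62C by 2.14, 2.39 and 2.70. Other steps of the pathway were higher by less. URA1, the dihydroorotate dehydrogenase, an earlier step of the pathway, was at 11.83 and 12.05 on the arrays labelled E62C, against 10.91 and 10.89 on those labelled E62A, a difference of 1.04 ± 0.10 (adjusted p = 6.45e-05). URA4, the dihydroorotase, was higher by 0.38 ± 0.07 (adjusted p = 0.00392). In all, 7 of 17 measured genes of pyrimidine synthesis and uptake were higher and 1 was lower, with a median of 0.18. With each array left out, 7, 4, 4 and 3 were higher and 1, 1, 1 and 0 lower.

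PRM5, a pheromone-regulated membrane protein whose expression is often used to read out cell wall signalling, had 8.96 and 9.08 on the arrays labelled E62C, against 6.93 and 6.84 on those labelled E62A, with 8.47 and 8.56 on REF. It was 2.14 ± 0.10 higher (adjusted p = 2.83e-07), and set against REF it stood at 0.51 on the arrays labelled E62C and at -1.63 on those labelled E62A. PHO5, a secreted acid phosphatase, was at 7.68 and 7.89 on the arrays labelled E62C against 5.80 and 5.79 on those labelled E62A, with 5.83 and 5.77 on REF, all below background. Its difference is therefore a bound of at least 3.45-fold (adjusted p = 3.93e-08), with the dim arrays set to the background level of 6.002. The glycerol and proton symporter STL1 was at 9.51 and 10.01 on the arrays labelled E62C, against 8.08 and 8.08 on those labelled E62A and 10.14 and 10.09 on REF, a difference of 1.68 ± 0.14. RGI2, a gene induced in respiratory growth, was 1.61 ± 0.12 higher, at 8.31 and 8.03 on the arrays labelled E62C, against 6.49 and 6.64 on those labelled E62A, with 6.80 and 6.88 on REF.

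Some of the large rises were of neighbours on a chromosome. YAR066W and YAR068W, next to each other on chromosome I, were 1.59 and 1.91 higher, and both are of unknown function. The probe set of YAR066W is shared by its name between transcripts, so its level cannot be assigned to 1 gene. YLL053C and AQY2 on chromosome XII, parts of a water channel gene that is interrupted in the reference genome strain, were 1.55 and 1.44 higher. YOL163W and YOL162W on chromosome XV were 1.42 and 1.17 higher. These and YAR066W with YAR068W were all the neighbouring pairs in which both genes were called and at least 2-fold higher or lower. AQY2, YOL163W and YOL162W were singled out after their values were seen, and each also passed without each array in turn.

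**Figure D2:**
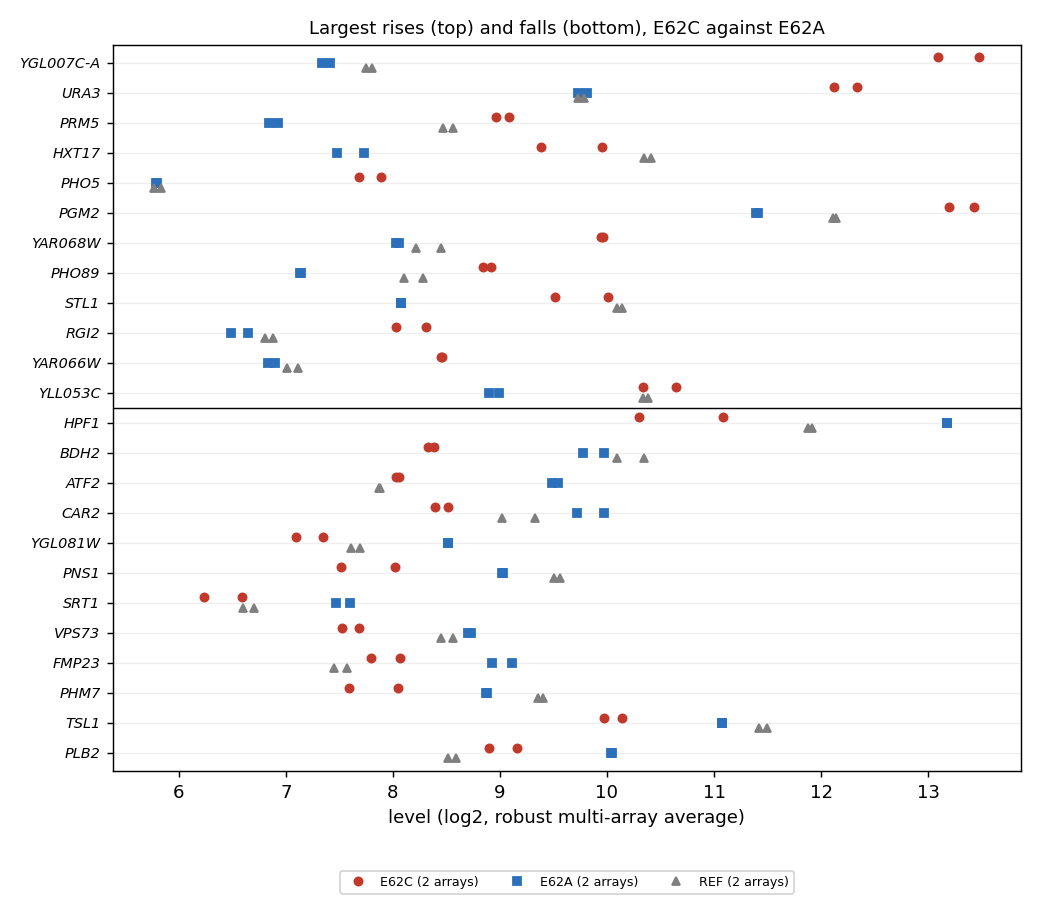
Level (horizontal axis, log2, robust multi-array average) of the 12 largest rises (top) and 12 largest falls (bottom) on each array labelled E62C (circles), E62A (squares) and REF (triangles). For YLL053C the circles lie beside the REF triangles, and for URA3 and PHO5 the squares do.

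The largest fall was that of HPF1, a cell wall mannoprotein gene, at 10.30 and 11.09 on the arrays labelled E62C, 13.18 and 13.18 on those labelled E62A, and 11.92 and 11.88 on REF. It fell by 2.49 ± 0.20 (adjusted p = 1.43e-05), and REF lay between the other groups. ATF2, an acetyltransferase that acts on alcohols and sterols, was at 8.03 and 8.06 on the arrays labelled E62C, against 9.49 and 9.54 on those labelled E62A, with 7.87 and 7.88 on REF. Its difference was -1.47 ± 0.07 (adjusted p = 2.84e-07), so that the E62A arrays stood above both other groups. BDH2, related to butanediol dehydrogenase, showed the other arrangement. It was at 8.33 and 8.39 on the arrays labelled E62C, against 9.78 and 9.98 on those labelled E62A and 10.09 and 10.34 on REF, a difference of -1.52 ± 0.12. CAR2, the ornithine transaminase of arginine breakdown, fell by 1.39 ± 0.13. PNS1, VPS73, YGL081W, FMP23, the prenyltransferase SRT1 and the phospholipase PLB2 had differences between -1.01 and -1.29, each past the test. Of the 12 largest rises and the 12 largest falls, each also passed without each array in turn.

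In the galactose pathway the structural genes GAL1, GAL2, GAL7 and GAL10 did not pass the test. GAL1, the galactokinase, was at 13.93 and 13.82 on the arrays labelled E62C, 13.90 and 13.89 on those labelled E62A, and 13.87 and 13.91 on REF. Its difference was -0.02 ± 0.07 (adjusted p = 0.855), and those of GAL2, GAL7 and GAL10 were -0.07 ± 0.09, -0.13 ± 0.08 and -0.15 ± 0.09, none of which passed. These 4 genes lie close to the top of the scale, which ended at 14.43, and whether that limits their differences was not tested. PGM2 was 1.91 ± 0.11 higher (adjusted p = 2.09e-06), while PGM1, the minor phosphoglucomutase, was at 9.52 and 9.52 on the arrays labelled E62C, against 9.49 and 9.65 on those labelled E62A. Thus 1 of 7 measured members was higher and 1 lower (14.3% each, against 9.97% and 7.84% of all genes). The lower one was UGP1, the uridine diphosphate glucose pyrophosphorylase, at -0.34 ± 0.09 (adjusted p = 0.0228), and leaving out E62C replicate 1, E62A replicate 1 or E62A replicate 2 ended that call, with adjusted p of 0.0886, 0.0876 and 0.15.

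Regulators of the galactose genes gave 1 higher and 1 lower member of 8 measured, and both calls were weak. Each share was 12.5%, near the 9.97% and 7.84% of all genes. The uracil permease FUR4, which is also a Gal4 target, fell by 0.41 ± 0.08 (adjusted p = 0.00641), though not without E62A replicate 2 (adjusted p = 0.0565). MTH1, a repressor of hexose transporter genes, was 0.25 ± 0.07 higher (adjusted p = 0.0386), and leaving out any 1 of the 4 arrays ended that call, with adjusted p between 0.0862 and 0.246. The inducer sensor GAL3, the inhibitor GAL80, the repressor MIG1 and the protease LAP3 had differences of 0.16 ± 0.08, 0.23 ± 0.08, 0.07 ± 0.08 and 0.11 ± 0.08, and none passed.

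Many genes of mating were higher on the arrays labelled E62C, though no culture is labelled as treated with pheromone. A haploid cell normally expresses either the a-specific or the alpha-specific set, and members of both sets were higher. Of 7 a-specific genes 4 were higher and 0 lower, and of 4 alpha-specific genes 2 were higher and 0 lower, with the same counts when each array was left out. MFA1, an a-factor precursor gene, was at 11.28 and 10.91 on the arrays labelled E62C, 10.10 and 10.18 on those labelled E62A, and 11.85 and 11.74 on REF. It was higher by 0.95 ± 0.14 (adjusted p = 8.13e-04). BAR1, the protease that degrades alpha-factor, was higher by 0.82 ± 0.08, and STE2, the alpha-factor receptor, by 0.49 ± 0.08. On the alpha side, the a-factor receptor STE3 was at 7.49 and 7.66 on the arrays labelled E62C, against 6.47 and 6.58 on those labelled E62A, with 7.71 and 7.82 on REF, a difference of 1.05 ± 0.14 (adjusted p = 4.73e-04). MF(ALPHA)1, an alpha-factor precursor gene, was 1.04 ± 0.14 higher.

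Downstream of the receptors, 12 of 22 measured genes of pheromone response and cell fusion were higher and 0 lower, with a median of 0.27. The counts were 10, 10, 7 and 9 with each array left out. FUS1, a membrane protein of cell fusion, was at 8.80 and 8.61 on the arrays labelled E62C, 7.20 and 7.18 on those labelled E62A, and 9.19 and 9.25 on REF. That is a difference of 1.52 ± 0.08 (adjusted p = 5.11e-07). SST2, which turns off the G protein of the pathway, had 8.45 and 8.39 on the arrays labelled E62C, against 7.51 and 7.62 on those labelled E62A, and was 0.86 ± 0.07 higher. FUS2, PRM1, PRM2 and KAR4, which act in cell and nuclear fusion or in their regulation, were higher by 0.63, 0.61, 0.61 and 0.52. Set against REF, FUS1 was -0.51 on the arrays labelled E62C and -2.03 on those labelled E62A, and PRM2 was -0.71 and -1.32. The REF arrays are shared by these 2 comparisons, in which 9.8% of genes passed for E62C and 12.5% for E62A.

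**Figure D3:**
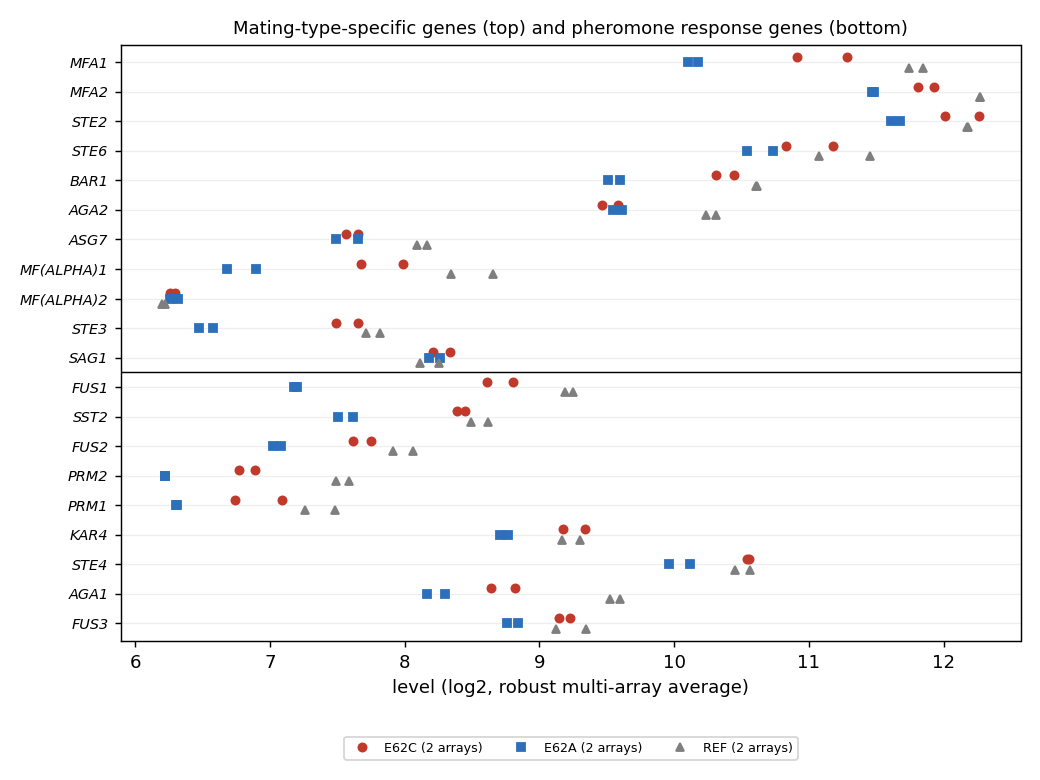
Levels (horizontal axis, log2) of all measured mating-type-specific genes (top) and of the 9 pheromone response genes with the largest differences (bottom) on each array labelled E62C (circles), E62A (squares) and REF (triangles). For FUS1, SST2, STE3 and MFA1 the squares lie to the left of every circle and triangle.

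Most measured ergosterol genes of the late part of the pathway were lower on the arrays labelled E62C. From squalene to ergosterol, 12 of 17 measured genes were lower and 0 higher, with a median of -0.42, and the lower count was 12, 9, 9 and 9 with each array left out. In the mevalonate branch before it, 0 of 9 were lower and 1 was higher, with a median of -0.10, and the 1 higher gene, ERG12, did not pass without any 1 of the arrays. ERG3, the sterol C-5 desaturase, was at 12.06 and 11.98 on the arrays labelled E62C, 12.94 and 13.02 on those labelled E62A, and 11.94 and 11.89 on REF. It fell by 0.96 ± 0.08 (adjusted p = 1.55e-05). ERG4, the last enzyme of the pathway, had 11.30 and 11.28 on the arrays labelled E62C, against 11.99 and 11.94 on those labelled E62A and 11.29 and 11.31 on REF, a difference of -0.68 ± 0.09 (adjusted p = 5.36e-04). The levels on the arrays labelled E62C lay close to those on REF, and the arrays labelled E62A were above both.

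The desaturase gene ERG5, in which the study reported a mutation, followed the others. It was at 12.07 and 11.83 on the arrays labelled E62C, 12.46 and 12.48 on those labelled E62A, and 11.95 and 12.09 on REF, and fell by 0.52 ± 0.10 (adjusted p = 0.00436). ERG29, NCP1 (the reductase that feeds electrons to the pathway's cytochromes P450), ERG24 and ERG25 fell by 0.80, 0.71, 0.66 and 0.65. Over the 17 genes the median against REF was 0.10 for the arrays labelled E62C and 0.60 for those labelled E62A. Among 15 genes of sterol regulation, esterification and export, 2 were higher and 6 lower, and these counts were 3 and 6, 0 and 4, 0 and 2, and 1 and 3 with each array left out. Besides ATF2, the secreted sterol-binding protein gene PRY1 fell by 0.46 ± 0.08. UPC2, the sterol-sensing activator of the pathway, fell by 0.46 ± 0.10 (adjusted p = 0.0115), but not without E62A replicate 1 (adjusted p = 0.108).

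**Figure D4:**
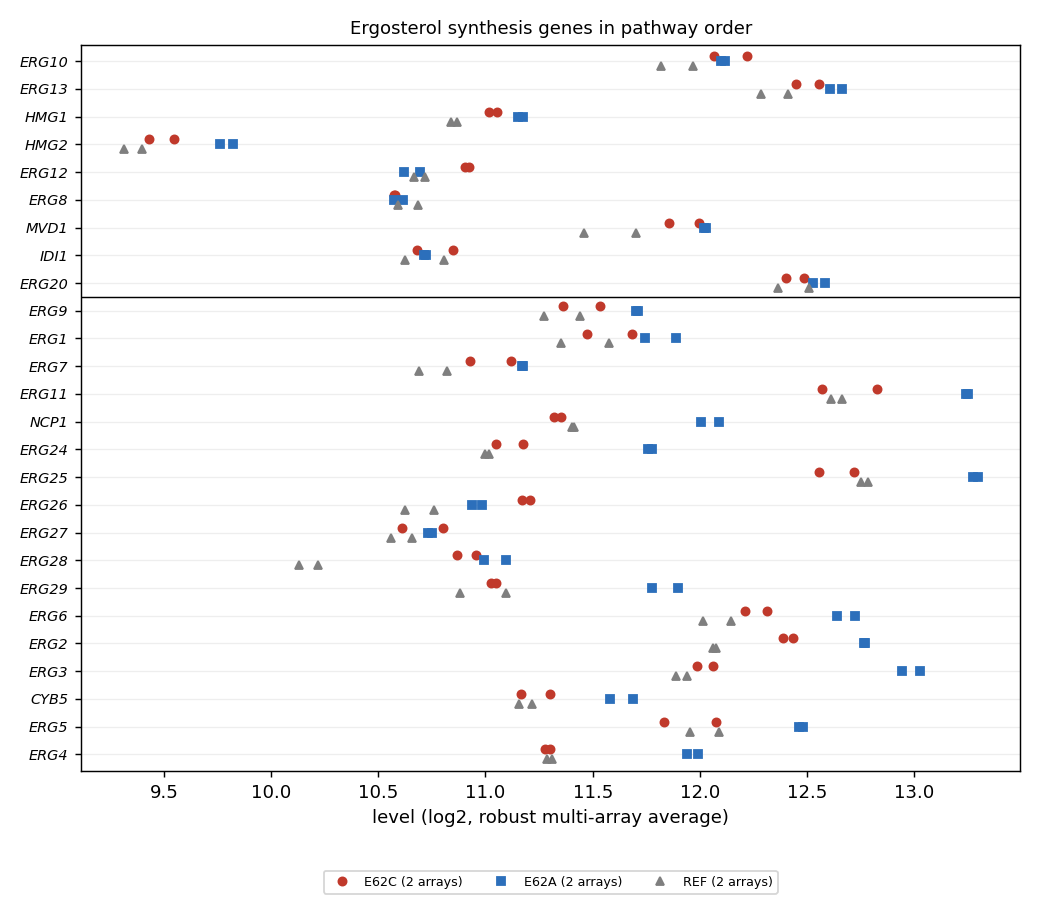
Levels (horizontal axis, log2) of the measured ergosterol genes, the mevalonate branch above the line and squalene to ergosterol under it, in pathway order, on each array labelled E62C (circles), E62A (squares) and REF (triangles). From ERG11 to ERG25 and from ERG6 to ERG4 the squares lie to the right of the circles.

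Among reserve carbohydrate genes more passed as lower than as higher on the arrays labelled E62C. Trehalose genes gave 0 higher and 4 lower of 7, with a median of -0.36, and 2, 3, 1 and 2 were lower with each array left out. Glycogen genes gave 1 higher and 5 lower of 13, with a median of -0.15, and 4, 3, 3 and 3 were lower with each array left out, when none was higher. TSL1, a subunit of trehalose synthase, was at 9.97 and 10.14 on the arrays labelled E62C, 11.07 and 11.07 on those labelled E62A, and 11.42 and 11.49 on REF, a difference of -1.01 ± 0.12 (adjusted p = 2.17e-04). GLC3, the glycogen branching enzyme, was at 10.46 and 10.46 on the arrays labelled E62C, against 11.03 and 11.11 on those labelled E62A, with 11.66 and 11.67 on REF. It fell by 0.61 ± 0.08. The glycogen initiator GLG2 fell by 0.73 ± 0.09 and the glycogen phosphorylase GPH1 fell by 0.50 ± 0.08. For TSL1, GLC3 and GPH1 the arrays labelled E62A lay between those labelled E62C and REF.

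Among measured targets of the stress activators Msn2 and Msn4, 43.8% were lower, against 7.84% of all genes. The share that was higher, 12.5%, lay near the 9.97% of all genes. Of 32 measured, 14 were lower and 4 higher, with a median of -0.14, and the lower counts were 13, 12, 9 and 10 and the higher counts 6, 2, 3 and 2 with each array left out. Without E62C replicate 1 the median was 0.03. The glutamate decarboxylase gene GAD1 had 8.49 and 8.81 on the arrays labelled E62C, against 9.65 and 9.60 on those labelled E62A, with 10.22 and 10.34 on REF, and fell by 0.97 ± 0.10 (adjusted p = 8.90e-05). RTN2 (a reticulon), TFS1 (an inhibitor of carboxypeptidase Y), OM45 and YGP1 fell by 0.88, 0.87, 0.82 and 0.82. SPI1, a cell wall protein gene of the same list, was higher by 0.83 ± 0.11 (adjusted p = 4.59e-04), at 8.32 and 8.44 on the arrays labelled E62C, against 7.50 and 7.60 on those labelled E62A, with 8.91 and 9.20 on REF. Against REF, the median of the list was -1.19 for the arrays labelled E62C and -0.66 for those labelled E62A.

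Genes of peroxide defence gave 2 higher (10.5%) and 5 lower (26.3%) of 19, against 9.97% and 7.84% of all genes. The peroxidases AHP1 and HYR1, the glutaredoxin GRX2 and the mitochondrial superoxide dismutase SOD2 fell by 0.57, 0.51, 0.41 and 0.37. Opposite to them, OYE2, an NADPH oxidoreductase, was at 12.17 and 12.14 on the arrays labelled E62C, 10.999 and 10.94 on those labelled E62A, and 11.56 and 11.71 on REF, and was higher by 1.19 ± 0.08 (adjusted p = 3.63e-06). The higher counts were 3, 3, 2 and 1 and the lower counts 5, 4, 4 and 4 with each array left out.

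Of 21 chaperone genes driven by the heat shock factor Hsf1, 8 were higher and 0 lower, with a median of 0.21, and 8, 3, 3 and 3 were higher with each array left out, with 1 lower without E62C replicate 2. HCH1, an Hsp90 activator, was higher by 0.51 ± 0.10, the sorting factor BTN2 by 0.40 ± 0.07, and FES1, an exchange factor for Hsp70, by 0.39 ± 0.06. Of 34 proteasome genes, 15 were higher and 0 lower, with 33 above 0, against 3062 of all 5449 genes, and a median of 0.24. Here 12, 7, 4 and 6 were higher with each array left out. PRE8, of the core particle, was at 11.44 and 11.41 on the arrays labelled E62C, against 11.01 and 11.01 on those labelled E62A, with 11.22 and 11.32 on REF, a difference of 0.42 ± 0.07 (adjusted p = 0.00342). RPN11, of the lid, was higher by 0.40 ± 0.07.

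**Figure D5:**
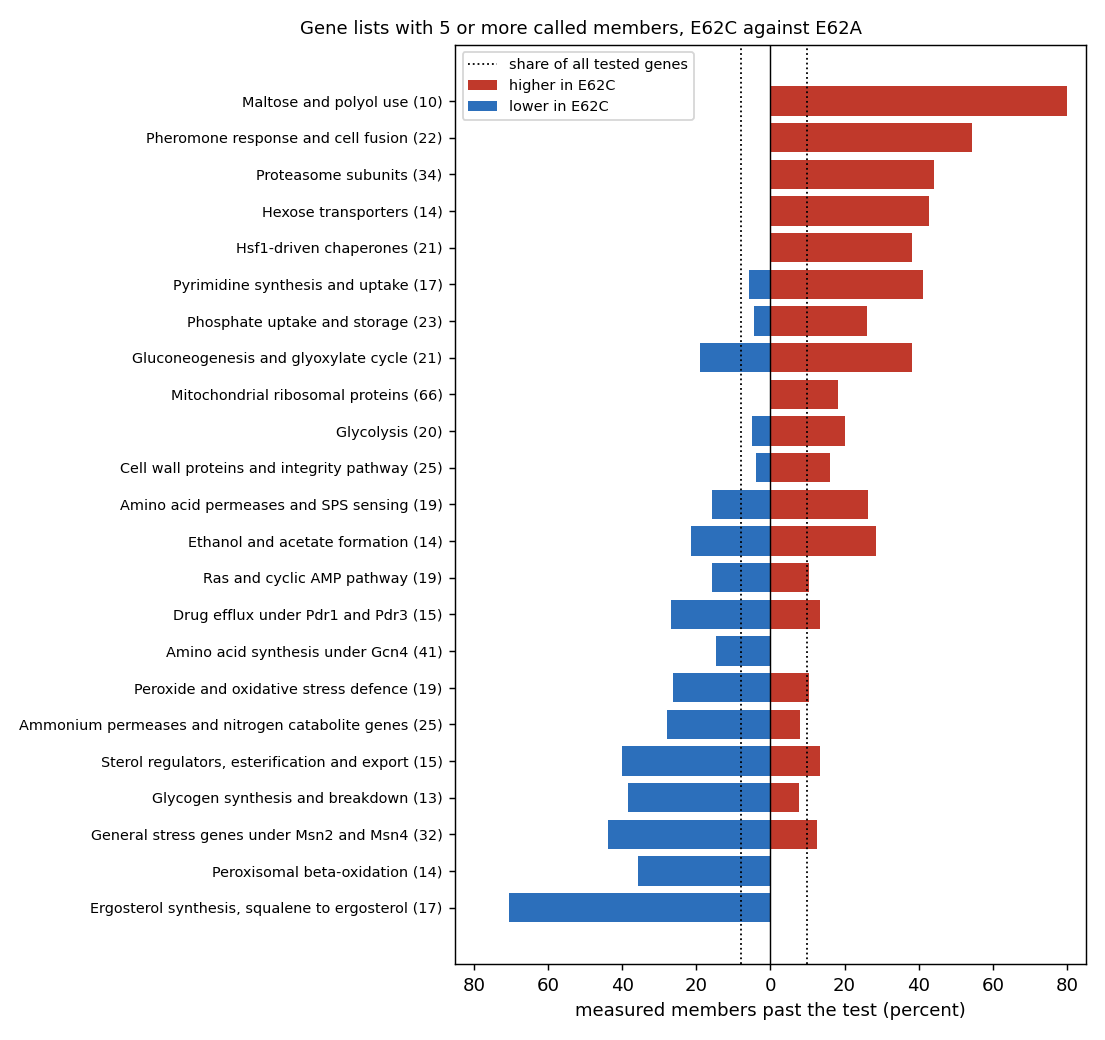
Share of the measured members of each gene list that passed the test (horizontal axis, percent), higher in E62C to the right in red and lower to the left in blue, for lists with 5 or more called members, with the number measured in brackets. Dotted lines give the shares over all tested genes, 9.97% higher and 7.84% lower, and maltose and polyol use reaches 80% higher.

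In the Ras and cyclic AMP pathway, 2 of 19 measured genes were higher and 3 lower. The higher share, 10.5%, was near the 9.97% of all genes, and the lower share was 15.8% against 7.84%. The clearest calls were opposite in direction. PDE2, which breaks down cyclic AMP, was at 9.49 and 9.53 on the arrays labelled E62C, 8.96 and 8.96 on those labelled E62A, and 9.17 and 9.22 on REF, and was higher by 0.55 ± 0.07 (adjusted p = 2.84e-04). BCY1, the inhibitory subunit of protein kinase A, was at 10.30 and 10.25 on the arrays labelled E62C, against 10.79 and 10.78 on those labelled E62A, with 10.43 and 10.57 on REF, and fell by 0.52 ± 0.07 (adjusted p = 6.84e-04). RAS2, a gene with a mutation reported by the study, did not pass, with a difference of -0.15 ± 0.06 (adjusted p = 0.116). The higher and lower counts were 2 and 2, 3 and 3, 1 and 1, and 2 and 1 with each array left out.

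In maltose and polyol use, 8 of 10 measured genes were higher and 0 lower, with a median of 0.76, and 8, 8, 7 and 8 were higher with each array left out. MAL11, a maltose permease, was at 10.08 and 9.93 on the arrays labelled E62C, 8.76 and 8.61 on those labelled E62A, and 10.43 and 10.28 on REF, a difference of 1.32 ± 0.10 (adjusted p = 7.03e-06). MAL33, an activator of maltose genes, was higher by 1.04 ± 0.08, and the isomaltase gene IMA1 by 0.47 ± 0.09. The maltase gene MAL32, the mannitol dehydrogenase gene DSF1 and the sorbitol dehydrogenase gene SOR2 were higher by 1.42, 1.49 and 1.11, but their probe sets are shared and cannot separate close copies. Against REF, MAL11 was -0.35 on the arrays labelled E62C and -1.67 on those labelled E62A.

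Of 14 hexose transporter genes, 6 were higher and 0 lower, with a median of 0.30, and 8, 5, 4 and 4 were higher with each array left out. HXT5 was at 7.58 and 7.78 on the arrays labelled E62C, 6.72 and 6.60 on those labelled E62A, and 7.55 and 7.73 on REF, which is 1.02 ± 0.13 higher (adjusted p = 3.67e-04). HXT2 and HXT9 were higher by 0.98 ± 0.16 and 0.79 ± 0.11, although a second probe set of HXT9 gave 0.38. HXT17 was higher by 2.06 ± 0.18 on a shared probe set, and its second probe set gave 1.04. HXT14 and HXT8 were also called but were below background on both E62A arrays. Their differences are therefore bounds of at least 1.13-fold. They were at 6.20 and 6.17, and at 6.08 and 6.29, on the arrays labelled E62C, near the background of 6.002. Neither call held when an E62A array was left out. SUC2, the invertase, was at 10.12 and 9.999 on the arrays labelled E62C, against 9.32 and 9.26 on those labelled E62A, with 9.68 and 9.78 on REF, and was 0.77 ± 0.12 higher (adjusted p = 0.00123). It belongs to 18 genes of glucose repression, of which 3 were higher and 1 lower, and 3, 2, 1 and 1 were higher and 1, 0, 0 and 0 lower with each array left out.

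In glycolysis 4 of 20 genes were higher (20%) and 1 lower (5%), against 9.97% and 7.84% of all genes. HXK2, the main hexokinase on glucose, was at 12.64 and 12.56 on the arrays labelled E62C, 11.85 and 11.86 on those labelled E62A, and 11.88 and 12.09 on REF, a difference of 0.75 ± 0.09 (adjusted p = 2.10e-04). EMI2, a glucokinase relative, was higher by 0.66 ± 0.12. The higher counts were 5, 3, 3 and 3 and the lower counts 0 each time with each array left out. The pentose phosphate list gave 3 higher and 1 lower of 11, led by the transketolase TKL2 at 1.34 ± 0.15 and the transaldolase NQM1 at 0.59 ± 0.09. TKL2 was at 7.51 and 8.04 on the arrays labelled E62C, against 6.43 and 6.44 on those labelled E62A, with 8.07 and 8.30 on REF. With each array left out, 3, 2, 2 and 3 were higher and 1, 0, 0 and 0 lower.

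Genes of gluconeogenesis and the glyoxylate cycle were split, with 8 higher (38.1%) and 4 lower (19%) of 21. Of all genes 9.97% were higher and 7.84% lower. PCK1, which starts gluconeogenesis, was at 8.80 and 8.17 on the arrays labelled E62C, 7.34 and 7.35 on those labelled E62A, and 7.91 and 8.002 on REF, which is 1.14 ± 0.16 higher (adjusted p = 6.25e-04). REG2, a phosphatase subunit of glucose repression, and the carnitine acetyltransferase YAT1 were higher by 1.17 ± 0.12 and 1.06 ± 0.10. Against these, the malate synthase MLS1 of the glyoxylate cycle was at 9.81 and 9.49 on the arrays labelled E62C, against 10.34 and 10.41 on those labelled E62A, with 8.98 and 9.15 on REF. It fell by 0.72 ± 0.11 (adjusted p = 8.92e-04), and the ammonium exporter ATO2 and the cytosolic isocitrate dehydrogenase IDP2 fell by 0.85 ± 0.13 and 0.78 ± 0.08. With each array left out, 5, 7, 3 and 4 were higher and 5, 3, 3 and 3 lower.

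In peroxisomal beta-oxidation 0 of 14 genes were higher and 5 lower, but with each array left out 2, 1, 2 and 1 were lower, and the list's median of -0.07 became 0.02 without E62C replicate 2. The thioesterase TES1 was the 1 named gene of the list that passed each time, at -0.52 ± 0.10 (adjusted p = 0.00511). Ethanol and acetate formation gave 4 higher and 3 lower of 14, and with each array left out 2, 3, 1 and 1 were higher and 1, 3, 2 and 1 lower. ALD4, the mitochondrial aldehyde dehydrogenase, fell by 0.70 ± 0.09, at 12.41 and 12.59 on the arrays labelled E62C, against 13.16 and 13.24 on those labelled E62A, with 12.78 and 12.82 on REF. PDC6, a minor pyruvate decarboxylase, was higher by 0.57 ± 0.08. In glycerol metabolism and transport, STL1 was the 1 higher gene of 13 and 2 were lower, with higher counts of 2, 1, 1 and 1 and lower counts of 2, 3, 1 and 0 with each array left out.

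Of 36 genes of the respiratory chain and ATP synthase 3 were higher and 1 lower, with 3, 0, 0 and 0 higher and 2, 0, 0 and 0 lower with each array left out. In the TCA cycle 3 of 21 were higher and 0 lower, and 2, 1, 1 and 1 were higher with each array left out. The mitochondrial citrate synthase gene CIT3 passed each time, at 0.37 ± 0.06 (adjusted p = 0.00287). Of the respiratory list 8.33% were higher and 2.78% lower, and of the oxygen-regulated genes 11.1% and 11.1%, against 9.97% and 7.84% of all genes. Of 18 oxygen-regulated genes 2 were higher and 2 lower, and with each array left out 2, 2, 0 and 2 were higher and 1, 1, 0 and 0 lower.

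Phosphate uptake and storage gave 6 higher (26.1%) and 1 lower (4.35%) of 23, against 9.97% and 7.84% of all genes. Besides PHO5, the sodium and phosphate cotransporter PHO89 was at 8.84 and 8.92 on the arrays labelled E62C, 7.14 and 7.13 on those labelled E62A, and 8.10 and 8.28 on REF, and was higher by 1.74 ± 0.12 (adjusted p = 5.96e-06). GIT1, the permease for glycerophosphoinositol, was higher by 0.86 ± 0.11. The lower gene was PHM7, of unknown function, at -1.05 ± 0.14. With each array left out, 5, 6, 3 and 4 genes were higher and 1 lower each time.

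Iron uptake genes under the activator Aft1 had a median of 0.41, yet 0 of 22 passed by limma, with 2 higher and 1 lower at an unadjusted p under 0.05. At that unadjusted threshold 1029 of all 5449 genes were higher and 763 lower, so these few are no sign of a change in the list. The E62C replicates differed more than the groups in the genes named here. TIS11, which binds and destabilises messenger RNAs under iron limitation, was at 7.39 and 9.30 on the arrays labelled E62C, against 7.06 and 7.77 on those labelled E62A, with 8.59 and 7.19 on REF, a difference of 0.93 ± 0.78 (adjusted p = 0.443). The siderophore transporter ENB1 was at 9.20 and 10.59 on the arrays labelled E62C, against 8.98 and 9.33 on those labelled E62A. Without E62C replicate 1 the median was 0.85 and 2 genes were higher, while without E62C replicate 2 it was -0.09. Zinc and copper uptake gave 0 higher and 1 lower of 11, and with each array left out 1, 0, 0 and 0 were higher and 3, 0, 0 and 0 lower.

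In nitrogen metabolism the permease GAP1, which takes up all amino acids, was at 10.41 and 10.35 on the arrays labelled E62C, 11.25 and 11.41 on those labelled E62A, and 10.49 and 10.57 on REF. It fell by 0.95 ± 0.09 (adjusted p = 6.66e-05). The list of ammonium permeases and nitrogen catabolite genes held 2 higher and 7 lower of 25, with 2, 3, 1 and 1 higher and 6, 4, 6 and 2 lower with each array left out. The peptide transporter OPT2 fell by 0.61 ± 0.11, while DAL80, a repressor of this regulon, was higher by 0.59 ± 0.10. The ammonium permease MEP2 fell by 0.64 ± 0.13 (adjusted p = 0.00862), though not without E62A replicate 2 (adjusted p = 0.0794). Amino acid permeases gave 5 higher and 3 lower of 19, and 3, 5, 1 and 2 higher and 2, 2, 1 and 0 lower with each array left out. Among them PTR2, the permease for short peptides, was higher by 1.10 ± 0.15, at 10.80 and 10.46 on the arrays labelled E62C, against 9.32 and 9.74 on those labelled E62A.

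Amino acid synthesis under the activator Gcn4 gave 0 higher and 6 lower of 41, and 6, 3, 2 and 3 were lower with each array left out. The median was -0.03, so the list as a whole lay close to all genes. LEU9, of leucine synthesis, and BAT1, the mitochondrial branched-chain transaminase, fell by 0.46 ± 0.07 and 0.42 ± 0.07. The shares of sulfate assimilation genes, 7.69% higher and 7.69% lower, lay near the 9.97% and 7.84% of all genes. In sulfate assimilation 2 of 26 were higher and 2 lower, with 2, 3, 0 and 0 higher and 4, 1, 2 and 1 lower with each array left out. STR3, the cystathionine beta-lyase, passed each time at -0.70 ± 0.09. Purine synthesis gave 3 higher and 0 lower of 20, with 5, 1, 1 and 1 higher with each array left out, and IMD2, an inosine monophosphate dehydrogenase on a shared probe set, was higher by 1.03 ± 0.12.

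Thiamine and biotin genes gave 3 higher and 1 lower of 17, with 3, 7, 2 and 3 higher and 1, 0, 0 and 0 lower with each array left out. THI13, of thiamine precursor synthesis, was at 8.84 and 8.62 on the arrays labelled E62C, 7.40 and 7.45 on those labelled E62A, and 8.56 and 8.72 on REF, and was higher by 1.31 ± 0.09 on a shared probe set. Drug efflux genes under Pdr1 and Pdr3 gave 2 higher (13.3%) and 4 lower (26.7%) of 15, against 9.97% and 7.84% of all genes. The transporter QDR1 was higher by 0.68 ± 0.09 and the polyamine exporter TPO4 fell by 0.50 ± 0.08. The higher counts were 1, 3, 1 and 1 and the lower counts 4, 2, 1 and 2 with each array left out.

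Among 25 genes of the cell wall and its integrity pathway, 4 were higher and 1 lower, with 5, 5, 4 and 4 higher and 2, 1, 1 and 1 lower with each array left out. Besides PRM5, the chitin transglycosylase UTR2 was higher by 0.76 ± 0.12, the wall protein PIR3 by 0.72 ± 0.10, and SLT2, the kinase at the end of the pathway, by 0.47 ± 0.07. SLT2 was at 10.004 and 9.91 on the arrays labelled E62C, against 9.48 and 9.50 on those labelled E62A, with 9.89 and 9.98 on REF. SED1, an abundant wall protein, fell by 0.50 ± 0.07. Daughter-specific separation genes gave 0 higher and 3 lower of 10, with 1, 0, 0 and 0 higher and 3, 3, 2 and 2 lower with each array left out. The daughter-specific wall protein gene DSE2 and the chitinase CTS1 fell by 0.45 ± 0.08 each. By limma 0 of 5 flocculin genes passed, with 0 higher and 1 lower at an unadjusted p under 0.05, where 763 of all 5449 genes were lower. FLO11 had a difference of -0.12 ± 0.08 (adjusted p = 0.343). Of 13 seripauperin genes 3 were higher, all on shared probe sets, with 1, 3, 1 and 2 higher with each array left out, and PAU4 was higher by 0.64 ± 0.07.

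Genes of cytosolic ribosomal proteins and of ribosome biogenesis showed few calls. Of 128 cytosolic ribosomal protein genes 1 was higher and 0 lower, with a median of -0.05. In this list 99 lay below 0, against 2387 of all 5449 genes. The 1 higher gene was RPS9A (adjusted p = 0.00136). It was at 11.20 and 11.21 on the arrays labelled E62C, 10.72 and 10.71 on those labelled E62A, and 10.99 and 11.05 on REF. Ribosome biogenesis gave 1 higher of 53, and 1, 2, 0 and 0 with each array left out. Of 66 mitochondrial ribosomal protein genes 12 were higher and 0 lower. Among these 66 genes 60 lay above 0, against 3062 of all 5449, and the median was 0.16. Without each array in turn 12, 3, 1 and 1 were higher, and none of the 6 named genes of this list passed each time. Histone genes gave 0 higher and 1 lower of 9, the linker histone HHO1 at -0.47 ± 0.08, with 2, 1, 1 and 1 lower with each array left out. By limma 0 of 17 genes of inositol and phospholipid synthesis and 0 of 11 of fatty acid synthesis passed. At an unadjusted p under 0.05 there were 0 of the first list, and 1 higher and 1 lower of the second. Over all 5449 genes 1029 were higher and 763 lower at that threshold. The inositol synthase INO1 had 12.63 and 11.54 on the arrays labelled E62C, against 12.42 and 12.41 on those labelled E62A, so its E62C replicates differed more than the groups. Without E62C replicate 1, 1 inositol gene was lower and 2 fatty acid genes were higher, and without E62C replicate 2, 2 inositol genes were higher. In the Ehrlich pathway and acetate esters 1 of 9 was lower, and with each array left out 0, 2, 0 and 0 were.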

How the data were processed

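The values deposited by the authors are log2 expression values of 10928 probe sets on 12 arrays. Per the labels' protocols, RNA was labelled with biotin for Affymetrix arrays. RMA and affy are named in the submitters' processing notes, without versions, and nothing else of the upstream steps is given in the sources used here. RMA equalises the probe intensities of the arrays, so a shift of all transcripts would be removed. The medians of the deposited values still ran from 6.72 to 6.89 over the 12 arrays.

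Gene names came from a platform table and assembly R64. Each of the 5449 genes is represented by its probe set of highest mean. Background, 6.002, is the 95th percentile of 1746 fission yeast probe sets. Arrays carry no counts, so their number limits precision.

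With limma 3.58.1 (R 4.3.3), group means were fitted over all 12 arrays, followed by eBayes and Benjamini-Hochberg adjustment over 5449 genes at 0.05. The residual degrees of freedom were 6 and the prior ones 4.97. The smallest two-sided p of an exact permutation test of 2 against 2 arrays is 0.333.

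The comparison, 50 gene lists and the naming rule were chosen with earlier results of these data known. The rule names the 12 largest rises and the 12 largest falls whose arrays do not overlap, the genes GAL1, GAL2, GAL3, GAL4, GAL7, GAL10, GAL80, MIG1, LAP3, PGM1, PGM2, RAS2, ERG5, URA3, PMA1 and YGL007C-A, and from each list the 6 called members with the largest change, or 2 members where none was called. GAL4 has no named probe set here. Each of 19 alternatives changed 1 setting. Promoter motifs were not analysed here.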

Additional observations from a re-analysis of the deposited data

Results flagged for a closer look

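Signal outside the tested genes differed between the arrays labelled E62C and E62A in 3 places. Of 3470 probe sets without a gene name here, 70 passed the test, 35 higher and 35 lower, against 970 of 5449 genes in the main test. The array also carries fission yeast probe sets, and which of the 3470 match budding yeast was not determined. The largest difference among them was -2.93 ± 0.14, on a probe set shared by its name between transcripts. It was at 9.70 and 10.2 on the arrays labelled E62C, 12.9 and 12.9 on those labelled E62A, and 11.4 and 11.4 on REF.

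A reporter probe set of the source seen on 8 arrays was 2.40 higher on the arrays labelled E62C, at 13.0 and 12.9, against 10.5 and 10.5 on those labelled E62A, while the highest of the REF and E62B arrays was at 6.05. Another reporter probe set, of a second source, was 1.74 higher, at 8.64 and 7.19 on the arrays labelled E62C, against 6.19 and 6.16 on those labelled E62A, with 6.15 and 6.11 on REF. The highest level of this second probe set on any other array was 6.36. Groups of 2 arrays are too small for a test of single outlying arrays.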

How the results depend on the processing

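The counts of called genes were 970 in all, 543 higher and 427 lower. At an adjusted p under 0.01 they were 440, 243 and 197, and at an adjusted p under 0.05 with a log2 difference of at least 0.5 they were 278, 165 and 113. Leaving out 1 of the 4 arrays gave 375 to 1010 in all, 203 to 587 higher and 172 to 423 lower. With E62C replicate 2 and SO16 replicate 2 left out together the total was 1096. The other alternatives gave totals between 706, for a fit of the 4 arrays alone, and 1202, for arrays set to the same median. Normalizing by quantiles again gave 575 higher and 606 lower, so that 48.7% of calls were higher, against 56% as reported. The replicate block, fitted because groups share replicate numbers, gave 1162 called genes. The labels do not say whether the numbers pair the samples. Replicate differences of E62C and E62A correlated over genes at 0.31, and those of other pairs of groups at -0.35 to 0.54. The highest was that of E62C and SO16. On SO16 replicate 2, as on E62C replicate 2, the hybridisation controls averaged 9.77, and the ribosomal RNA probe sets averaged 11.5 there. A batch shared by these arrays was not tested. Of 228 named genes 210 passed, 114 of them also without each array in turn, and none that passed changed sign under any of the 19 alternatives. The unchanged signs add little, since several alternatives could not change a sign. Other thresholds leave the difference as it is, and leaving out 1 array cannot reverse groups whose arrays do not overlap. List medians kept their sign under the other scalings, except with quantiles for amino acid permeases, whose median of 0.04 became -0.001, and for cell wall genes, whose median of -0.01 became 0. List counts of 5 or more moved by over 1.5 times for proteasome genes, 23 higher with the same median on each array against 15 as reported, and for mitochondrial ribosomal protein genes, 7 higher with quantiles and 19 with the replicate block against 12. In a fit of the 4 arrays alone, higher counts were 4 against 7 for pyrimidine genes, 5 against 8 for chaperones, 2 against 5 for amino acid permeases and 5 against 12 for mitochondrial ribosomal proteins, and 3 sterol regulators were lower against 6. Dim probe sets limit the comparison: 13 called genes were below background on both arrays of a group.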
